A study of Homo sapiens with 30 samples.

Results

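The 45 mitosis genes described here encode proteins that carry a cell through division, and they were taken by gene symbol from a fixed list of members. For each symbol the transcript with the most counts on average was used, so that 45 of the 25680 symbols in the files entered. All 45 passed the filter on low counts, which left 16408 genes for testing. They were measured in H929 and OPM2, established human multiple myeloma cell lines, that is, lines of malignant antibody-secreting plasma cells. The 4 groups were H929 with 100 nM dBRD9-A, H929 with DMSO, OPM2 with 100 nM dBRD9-A and OPM2 with DMSO, each with 3 libraries taken after 24 h. dBRD9-A is a small-molecule degrader directed at BRD9, a bromodomain protein of the ncBAF chromatin remodelling complex, and DMSO is the solvent control. The labels name no other agent and no engineered allele for these 12 libraries. The comparison asks whether transcripts of the division machinery change when BRD9 is targeted, and whether they do so alike in the 2 lines.

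Entry into mitosis is driven by Cdk1 bound to cyclin A or cyclin B, and by the Polo and Aurora kinases. Chromosomes attach to spindle microtubules through kinetochores, and the spindle checkpoint holds the cell in metaphase until every kinetochore is attached. The anaphase-promoting complex then marks securin and cyclin B for destruction, separase cuts cohesin, and the midzone and the contractile ring divide the cell. Many of these genes are transcribed mainly in late S, G2 and M phase under MuvB, B-MYB and FOXM1, and myeloma lines grow as cycling cultures, so their transcripts are abundant there.

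Values are CPM, counts scaled to a common library total with TMM factors that correct for composition, and log2 fold changes are dBRD9-A over DMSO unless stated otherwise. A gene is said to be called, to have risen or to have fallen, where the adjusted p of edgeR's quasi-likelihood test, corrected by the Benjamini-Hochberg method over all 16408 genes, was under 0.05. Total counts were between 42895389 and 76600945 in 11 libraries and 24524193 in OPM2 dBRD9-A replicate 2. A single mitosis gene had between 157 and 61005 counts in a library, so that read sampling was small beside the differences between replicates. OPM2 dBRD9-A replicate 2 also stood apart in composition. Over 9291 genes, log2 values of this library deviated from the other replicates with an SD of 0.79, against 0.11 to 0.24 in the libraries of the other 3 groups, and the deviations correlated with transcript GC content (Spearman -0.70 over those genes, a description). A GC trend was not particular to this library. The correlation was -0.62 in H929 dBRD9-A replicate 1 and 0.64 in replicate 2, at an SD of 0.20 and 0.24. It was -0.20 in H929 dBRD9-A replicate 3 and between -0.46 and 0.41 in the DMSO libraries. In OPM2 dBRD9-A replicates 1 and 3 it was 0.64 and 0.71, at an SD of 0.38 and 0.44. Each of these was compared with a mean that includes replicate 2. Results are given with and without OPM2 dBRD9-A replicate 2.

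BRD9 itself, whose protein and not its transcript is the target of the compound, had 59.2, 60.3 and 71.5 CPM in H929 dBRD9-A libraries, against 79.9, 103.2 and 79.9 CPM in H929 DMSO libraries. The OPM2 values were 67.1, 80.9 and 81.0 CPM with dBRD9-A and 89.2, 86.0 and 93.9 CPM with DMSO. The BRD9 transcript fell in H929 (log2 fold change -0.46 ± 0.13 SE, edgeR adjusted p = 0.0391) and was not called in OPM2 (-0.23 ± 0.13, adjusted p = 0.241), so the transcript does not check the degradation. MYC, the other gene chosen as a check of the treatment, fell in both lines. It had -1.72 ± 0.26 (adjusted p = 0.00183) in H929 and -1.33 ± 0.26 (adjusted p = 0.00544) in OPM2, which does not measure BRD9 protein either. All 8 plasma cell markers were at 1 CPM or more in every group, with a summed level of 4224 to 7142 CPM over the 12 libraries, and no mature B cell or monocyte marker reached 1 CPM in a group. In H929, 1 of 2 T cell markers (CD3E) and 2 of 3 epithelial markers (KRT8 and KRT18) reached 1 CPM. The summed T cell markers were at 36.4 to 39.3 CPM with dBRD9-A and 23.2 to 25.5 CPM with DMSO, and the summed epithelial markers at 14.1 to 23.7 CPM with dBRD9-A and 8.19 to 11.1 CPM with DMSO. In OPM2, 1 of 2 erythroid markers (HBB) reached 1 CPM, with summed levels of 3.03 to 3.33 CPM with dBRD9-A and 5.75 to 6.46 CPM with DMSO. The part of these markers in the results was not tested.

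Promoter sequence is shown first, because it does not depend on the counts of these libraries. Windows of 120 bases before the annotated start were read from RefSeq promoters on GRCh38.p14, where 38 of the 45 genes had an entry. AURKA, TPX2, BIRC5, BUB3, TTK, UBE2C and FOXM1 had none. The letters searched, on both strands, were TTTGAA and TTTAAA, forms of the cell cycle homology region (CHR) through which MuvB complexes act, and CCAAT, the box bound by NF-Y. Matches can share bases, and did so in the windows of 4 members. A TTTGAA shared its last base with an ATTGG in CDCA8 and MKI67, and CCAAT and ATTGG shared 2 bases in HMMR and PTTG1. Capitals mark a match on either strand, so that ATTGG is a CCAAT box of the other strand. Of the 5 windows below, 4 belong to genes on which the results turn. PLK1 was called in no comparison and is shown because its window holds all 3 motifs. The windows are MAD2L1 (chr4:120066849-120066968, minus strand), NUSAP1 (chr15:41332761-41332880, plus strand), ESPL1 (chr12:53268179-53268298, plus strand), PLK1 (chr16:23678769-23678888, plus strand) and CKAP2 (chr13:52455868-52455987, plus strand), each written 5′ to 3′ on the strand of the gene.
MAD2L1: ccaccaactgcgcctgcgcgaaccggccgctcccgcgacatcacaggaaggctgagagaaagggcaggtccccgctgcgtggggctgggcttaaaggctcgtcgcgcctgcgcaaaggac
NUSAP1: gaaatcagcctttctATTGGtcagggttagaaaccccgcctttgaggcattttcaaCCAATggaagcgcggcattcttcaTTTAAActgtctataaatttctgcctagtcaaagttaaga
ESPL1: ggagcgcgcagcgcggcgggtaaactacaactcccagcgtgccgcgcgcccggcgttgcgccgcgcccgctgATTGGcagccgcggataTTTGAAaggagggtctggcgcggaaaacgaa
PLK1: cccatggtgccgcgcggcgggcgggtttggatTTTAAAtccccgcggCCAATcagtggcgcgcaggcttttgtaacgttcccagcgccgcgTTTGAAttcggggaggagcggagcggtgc
CKAP2: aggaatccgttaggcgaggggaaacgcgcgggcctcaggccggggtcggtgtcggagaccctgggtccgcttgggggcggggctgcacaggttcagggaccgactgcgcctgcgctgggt

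The PLK1 window holds both CHR forms and a CCAAT box, ESPL1 holds TTTGAA and a CCAAT box, and NUSAP1 holds TTTAAA and CCAAT boxes on both strands. MAD2L1 and CKAP2 hold none of the letters searched, which says only that these letters are not in the windows. Over the mitosis genes, TTTGAA was found in 19 of 38 (50.0%), against 0 of 42 DNA replication and S phase genes and 7.09% of the 27305 genes with a RefSeq promoter. TTTAAA was found in 8 (21.1%), against 3 (7.14%) and 6.03%. CCAAT was found in 27 (71.1%), against 23 (54.8%) and 24.3%. Both TTTGAA and CCAAT were found in 16 (42.1%), against 0 and 1.61%. These shares are descriptions of sequence, and a match was not tested as a binding site. The letters were searched because many of these genes are transcribed under MuvB, so the shares are not independent evidence about the list.

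In H929, 24 h of dBRD9-A left the transcripts of 44 of the 45 mitosis genes without a call. MAD2L1, a checkpoint protein, fell, and no member rose, where 13.0% of all genes tested were called (7.33% higher and 5.67% lower). Among the members 4 had an unadjusted p under 0.05, namely BUB3, MAD2L1, KIF4A and MYBL2, where 27.3% of all genes had one. The log2 fold changes were between -0.57 and 0.36 with a median of -0.02, and the median over all genes tested was -0.002. The 95% intervals of all 45 lay within 1 log2 unit of 0 and those of 25 within 0.5, so that a change of 2-fold or more lies outside every interval. Treated and control libraries did not overlap for 5 members that were higher (BUB1, KIF4A, NUSAP1, PRC1 and TOP2A) and 6 that were lower (CCNA2, AURKB, BUB3, MAD2L1, KIF2C and MYBL2), where 22.0% and 23.6% of all genes did so. In a culture, fewer cells in mitosis and less RNA per cell cannot be told apart.

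In OPM2, NUSAP1, a spindle protein, rose, MAD2L1 fell and 43 members were not called, where 17.4% of all genes were called (10.1% higher and 7.34% lower). An unadjusted p under 0.05 was found for 14 members, where 33.2% of all genes had one. The log2 fold changes were between -0.44 and 0.76 with a median of 0.15, against 0.03 over all genes tested, and 38 of the 45 intervals lay within 1 log2 unit of 0. The libraries did not overlap for 8 higher members (BUB1, NDC80, KIF4A, NUSAP1, NEK2, ECT2, ANLN and TOP2A) and 6 lower ones (CCNB1, AURKA, BUB3, MAD2L1, CDC20 and UBE2C), where 18.8% and 18.9% of all genes did so. With OPM2 dBRD9-A replicate 2 left out, the median was 0.04, against 0.001 over all genes. NUSAP1 and ESPL1 then rose and BUB3 and MAD2L1 fell, where 31.7% of genes were called (16.1% higher and 15.6% lower). Other libraries also moved these counts. After removal of OPM2 dBRD9-A replicate 3, 9 members rose and 2 fell, where 22.3% of all genes were called (13.0% higher and 9.32% lower). Without dBRD9-A replicate 1, 2 rose and 1 fell, where 13.7% of all genes were called. None rose or fell without DMSO replicate 1 or 3, and 1 fell without DMSO replicate 2, where 9.16%, 8.91% and 8.28% of all genes were called without replicates 1, 3 and 2.

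That library also enters the H929 result, because the spread of each gene is estimated over all 4 groups. Without it BUB1, CKAP2, KIF4A, NUSAP1 and TOP2A rose in H929, by 0.26 to 0.39 on the log2 scale, and AURKB, BUB3, MAD2L1 and MYBL2 fell, by 0.25 to 0.53, where 35.7% of genes were called (19.2% higher and 16.5% lower). The 9 members called of 45 are a smaller share than that background. Limma-voom with library weights, a tool that gives replicate 2 little weight, called 3 members higher and 4 lower in H929, where it called 36.0% of genes (17.4% higher and 18.6% lower). In OPM2 it called 8 higher and 4 lower, where it called 44.1% of genes (23.2% higher and 20.9% lower). The sign of the log2 fold change was positive in both lines for 18 members, negative in both for 14 and opposite for 13, so that 71.1% had the same sign, against 69.7% of all genes tested.

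**Figure D1:**
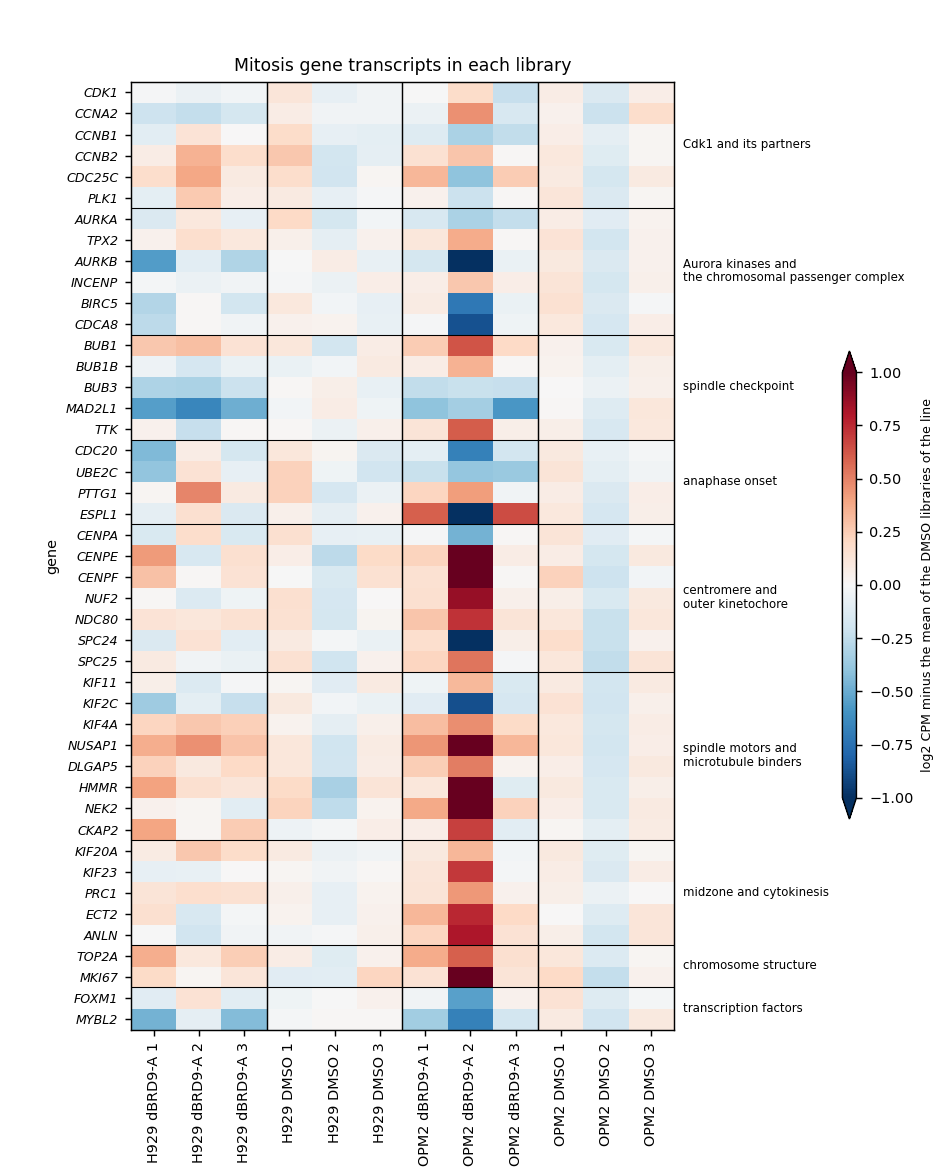
Rows are the 45 mitosis genes by role and columns the 12 libraries. Colour is log2 CPM minus the mean of the DMSO libraries of the same line, drawn up to 1 in either direction. MAD2L1 is lower in all 6 dBRD9-A libraries, and the dark column is OPM2 dBRD9-A replicate 2, in which 28 members lie above and the others below the DMSO mean.

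**Figure D2:**
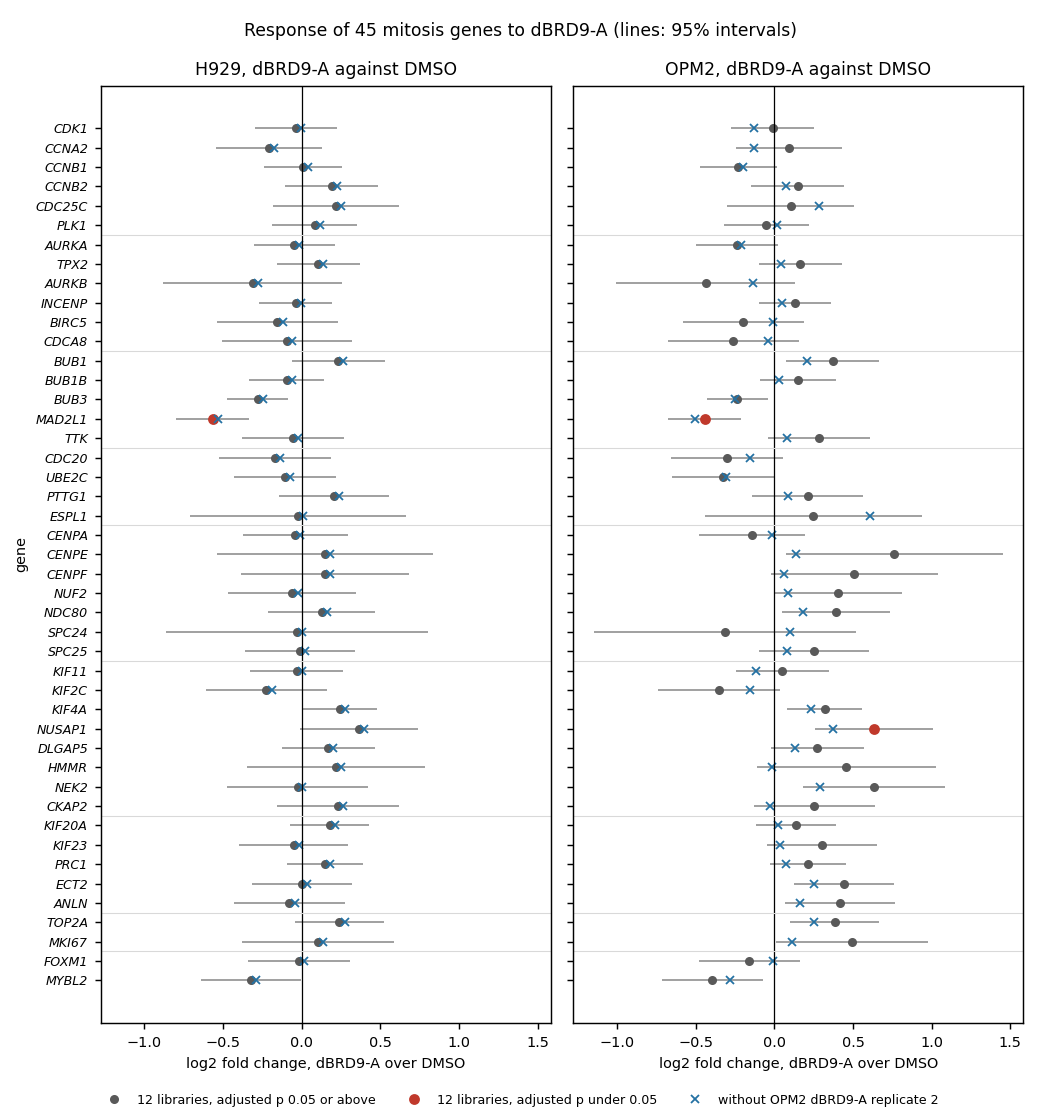
Points are log2 fold changes, dBRD9-A over DMSO, with 95% intervals, in H929 on the left and OPM2 on the right, and crosses are the values without OPM2 dBRD9-A replicate 2. Filled red points mark an adjusted p under 0.05, which only MAD2L1 in both lines and NUSAP1 in OPM2 reached with all 12 libraries. Crosses in OPM2 lie nearer to 0 than the points for CENPE (0.13 against 0.76) and CENPF (0.06 against 0.51), and farther from it for ESPL1 (0.61 against 0.25).

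The spindle checkpoint held the member that changed in both lines. MAD2L1 encodes MAD2, which binds and blocks CDC20 while kinetochores are unattached. It had 62.3, 58.0 and 65.3 CPM in H929 dBRD9-A libraries, against 89.95, 96.2 and 88.6 CPM in H929 DMSO libraries. OPM2 libraries had 107.1, 111.8 and 94.9 CPM with dBRD9-A, against 143.0, 129.9 and 153.8 CPM with DMSO. Every treated library was below every control library of its line. The log2 fold changes were -0.57 ± 0.11 (SE, n = 3 per group) in H929 and -0.44 ± 0.11 in OPM2, with edgeR adjusted p of 0.00535 and 0.0142. The H929 call held in all 23 alternative analyses, and the OPM2 call in 19 of 23. When OPM2 dBRD9-A replicate 2 was left out, the OPM2 value was -0.51 (adjusted p = 0.000931), and without OPM2 DMSO replicate 1 or 3 the adjusted p was 0.0502 or 0.0666. It was 0.0708 with the OPM2 libraries fitted alone. In GENCODE v29 an antisense gene, AC108866.1, overlaps an exon of MAD2L1, and the strand setting of the read counting was not stated in the sources used here.

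BUB3, which recruits checkpoint proteins to kinetochores, had 163.8, 162.3 and 174.9 CPM in H929 dBRD9-A libraries, against 204.5, 211.2 and 192.6 CPM in H929 DMSO libraries. Levels in OPM2 were 147.6, 149.9 and 149.2 CPM with dBRD9-A and 175.8, 168.5 and 181.8 CPM with DMSO. The groups did not overlap in either line, but BUB3 was not called (-0.28 ± 0.09, adjusted p = 0.0573 in H929, and -0.24 ± 0.09, adjusted p = 0.0858 in OPM2). Without OPM2 dBRD9-A replicate 2 it fell in both (-0.25 in each, adjusted p = 0.0138 and 0.0249). BUB1, a checkpoint kinase that also marks the inner centromere, lay the other way. It had 316.3, 323.2 and 291.3 CPM in H929 dBRD9-A libraries, against 284.5, 231.4 and 276.3 CPM in H929 DMSO libraries. In OPM2 it had 250.4, 326.2 and 241.2 CPM with dBRD9-A and 217.3, 189.1 and 226.8 CPM with DMSO. BUB1 was not called (0.23 ± 0.14, adjusted p = 0.304 in H929, and 0.37 ± 0.14, adjusted p = 0.0815 in OPM2), and in H929 it was called without that replicate. BUB1B, the BUBR1 pseudokinase of the checkpoint, had -0.09 in H929 and 0.15 in OPM2, and TTK, the kinase that starts checkpoint signalling, had -0.05 and 0.28.

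**Figure D3:**
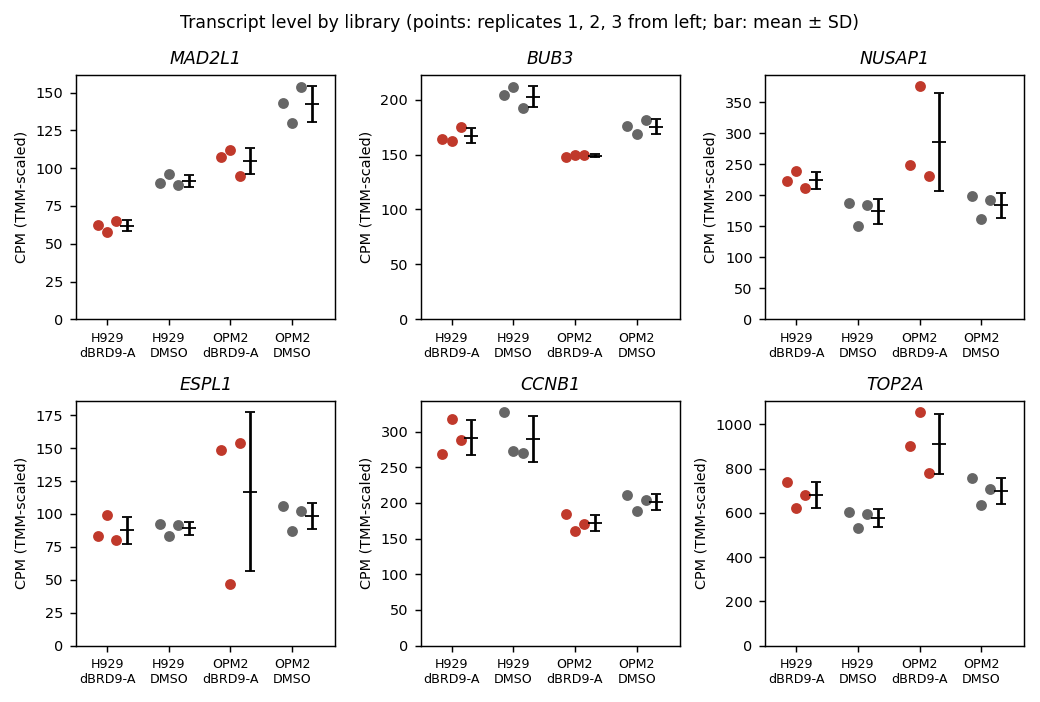
The 6 panels give CPM on linear axes from 0 for MAD2L1, BUB3, NUSAP1, ESPL1, CCNB1 and TOP2A, with points for the libraries of each group and a bar for the mean ± SD (n = 3). The treated MAD2L1 libraries lie below the controls in each line, whereas for ESPL1 in OPM2 treated replicates 1 and 3 (148.9 and 154.2 CPM) lie above and replicate 2 (47.2 CPM) below all controls.

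Among spindle motors and microtubule binders, NUSAP1, which bundles microtubules near chromosomes, rose in OPM2. It had 249.5, 376.2 and 231.5 CPM in OPM2 dBRD9-A libraries, against 198.9, 161.4 and 192.3 CPM in OPM2 DMSO libraries. In H929 it had 222.9, 238.7 and 211.3 CPM with dBRD9-A, against 188.1, 151.1 and 184.0 CPM with DMSO. All treated libraries lay above all controls in both lines, and replicate 2 was the highest of the OPM2 group. The log2 fold change was 0.63 ± 0.17 (SE, adjusted p = 0.027) in OPM2 and 0.36 ± 0.17 (adjusted p = 0.198) in H929. With OPM2 dBRD9-A replicate 2 left out, both lines were called, at 0.37 (adjusted p = 0.0198) in OPM2 and 0.39 (adjusted p = 0.00709) in H929. The OPM2 call was lost in 6 of 23 alternatives, among them the removal of OPM2 DMSO replicate 1, 2 or 3 (adjusted p = 0.0598, 0.116 and 0.0703) and the fit of OPM2 alone (0.123). An exon of NUSAP1 overlaps AC087721.2, a protein-coding gene on the same strand in GENCODE v29. The part of that overlap in the NUSAP1 counts was not tested.

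KIF4A, a chromosome-bound kinesin, had 91.3, 94.8 and 92.9 CPM in H929 dBRD9-A libraries, against 80.6, 73.7 and 81.5 CPM in H929 DMSO libraries. The OPM2 values were 134.5, 150.3 and 124.3 CPM with dBRD9-A and 116.8, 96.3 and 114.5 CPM with DMSO. The groups did not overlap in either line, and neither difference was called (0.24 ± 0.11, adjusted p = 0.178, and 0.32 ± 0.11, adjusted p = 0.0644). KIF11, the motor that pushes spindle poles apart, had 203.6, 177.2 and 193.7 CPM in H929 dBRD9-A libraries and 198.4, 180.9 and 207.7 CPM in H929 DMSO libraries. OPM2 libraries had 233.0, 299.6 and 215.4 CPM with dBRD9-A and 255.6, 211.6 and 254.8 CPM with DMSO. Its groups overlapped in both lines (-0.03 ± 0.14 and 0.05 ± 0.14). KIF2C, a microtubule depolymerase at centromeres, had -0.22 and -0.35, and NEK2, a centrosome kinase, had -0.03 and 0.63 (adjusted p = 0.0535 in OPM2). Without OPM2 dBRD9-A replicate 2, NEK2 had 0.29 in OPM2 (adjusted p = 0.0822). Limma-voom called NEK2 higher in OPM2 (0.34, adjusted p = 0.011), 1 of the 8 of 23 alternatives that did so. DLGAP5 and HMMR, which bind spindle microtubules, had 0.17 and 0.22 in H929 and 0.27 and 0.46 in OPM2, and HMMR had -0.02 in OPM2 without replicate 2. CKAP2, which promotes microtubule growth, had 0.23 in H929 and 0.25 in OPM2.

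The kinase that starts mitosis and its partners gave no call by edgeR and no unadjusted p under 0.05 (0 of 6 genes in each line), with medians of 0.05 in H929 and 0.04 in OPM2. Limma-voom called 1 of them, CDC25C, higher in OPM2 (16.7%, against 23.2% of all genes). Of all genes, edgeR called 13.0% in H929 and 17.4% in OPM2, and 27.3% and 33.2% had an unadjusted p under 0.05. CDK1 had 69.6, 67.4 and 69.1 CPM in H929 dBRD9-A libraries, against 76.3, 66.4 and 68.5 CPM in H929 DMSO libraries. Levels in OPM2 were 157.9, 180.1 and 134.9 CPM with dBRD9-A and 167.1, 143.2 and 166.4 CPM with DMSO. Groups overlapped in each line, with log2 fold changes of -0.03 (95% interval -0.30 to 0.23) and -0.01 (-0.27 to 0.25). CCNB1, cyclin B1, had 268.3, 317.4 and 288.6 CPM in H929 dBRD9-A libraries and 326.7, 272.4 and 269.3 CPM in H929 DMSO libraries. In OPM2 it had 184.1, 161.1 and 169.9 CPM with dBRD9-A, against 211.0, 188.7 and 204.4 CPM with DMSO. The OPM2 groups did not overlap and the H929 groups did, and CCNB1 was not called in OPM2 (-0.23 ± 0.11, adjusted p = 0.177) or in H929 (0.01 ± 0.11).

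PLK1, the Polo kinase of mitotic entry, had 176.0, 225.1 and 196.5 CPM in H929 dBRD9-A libraries and 200.5, 177.3 and 186.8 CPM in H929 DMSO libraries. The OPM2 values were 243.8, 203.8 and 238.7 CPM with dBRD9-A and 257.4, 213.6 and 240.3 CPM with DMSO. The groups overlapped in both lines, at 0.08 (95% interval -0.19 to 0.35) and -0.05 (-0.32 to 0.22). CCNA2, cyclin A2, was lower in every H929 dBRD9-A library (136.6 to 142.0 CPM) than in every H929 DMSO library (156.9 to 169.0 CPM) and was not called (-0.21, adjusted p = 0.437), and it had 0.10 in OPM2. CCNB2, cyclin B2, had 0.19 and 0.15, and CDC25C, a phosphatase that activates Cdk1, had 0.22 and 0.10.

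Aurora kinases and the chromosomal passenger complex, which corrects faulty attachments, gave no call by edgeR either and no unadjusted p under 0.05 (0 of 6 genes in each line), with medians of -0.07 in H929 and -0.22 in OPM2. Limma-voom called 1, AURKB, lower in H929 (16.7%, against 18.6% of all genes). Of all genes, edgeR called 13.0% in H929 and 17.4% in OPM2, and 27.3% and 33.2% had an unadjusted p under 0.05. AURKA, the spindle pole Aurora kinase, had 139.6, 165.5 and 145.7 CPM in H929 dBRD9-A libraries and 177.5, 136.5 and 151.6 CPM in H929 DMSO libraries. OPM2 libraries had 115.2, 103.3 and 109.2 CPM with dBRD9-A, against 135.6, 119.0 and 132.2 CPM with DMSO. The OPM2 groups did not overlap, but the difference of -0.24 ± 0.12 was not called (adjusted p = 0.184). AURKB, the kinase of the passenger complex, had 64.7, 88.5 and 77.4 CPM in H929 dBRD9-A libraries, against 94.98, 100.5 and 90.5 CPM in H929 DMSO libraries. Levels in OPM2 were 77.7, 32.9 and 83.7 CPM with dBRD9-A and 93.9, 79.3 and 90.3 CPM with DMSO. The H929 groups did not overlap, and the low OPM2 value belongs to replicate 2. AURKB was not called (-0.31 ± 0.26, adjusted p = 0.498 in H929, and -0.44 ± 0.26, adjusted p = 0.267 in OPM2). When OPM2 dBRD9-A replicate 2 was left out, it fell in H929 (-0.28, adjusted p = 0.0451) and had -0.13 in OPM2 (adjusted p = 0.398).

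BIRC5, survivin, had 109.9, 135.3 and 118.2 CPM in H929 dBRD9-A libraries and 144.9, 132.2 and 127.3 CPM in H929 DMSO libraries. In OPM2 it had 192.2, 111.0 and 173.9 CPM with dBRD9-A and 202.4, 164.7 and 180.5 CPM with DMSO. Its log2 fold changes were -0.15 and -0.20, and -0.01 in OPM2 without replicate 2. The passenger subunits INCENP, the scaffold of the complex, and CDCA8, borealin, had -0.04 and -0.09 in H929 and 0.13 and -0.26 in OPM2. TPX2, which activates AURKA on the spindle, had 0.11 and 0.16.

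At anaphase onset, CDC20, the activator of the anaphase-promoting complex, had 122.8, 176.1 and 148.2 CPM in H929 dBRD9-A libraries and 180.8, 170.7 and 151.6 CPM in H929 DMSO libraries. The OPM2 values were 156.5, 105.1 and 147.4 CPM with dBRD9-A and 179.8, 159.0 and 165.2 CPM with DMSO. The OPM2 groups did not overlap, and neither line was called (-0.17 ± 0.16 in H929 and -0.30 ± 0.16 in OPM2). UBE2C, the ubiquitin-conjugating enzyme of that complex, had 141.5, 205.2 and 175.1 CPM in H929 dBRD9-A libraries and 218.2, 180.6 and 162.5 CPM in H929 DMSO libraries. OPM2 libraries had 118.7, 106.0 and 107.4 CPM with dBRD9-A, against 151.7, 129.6 and 135.5 CPM with DMSO. Again the OPM2 groups alone were separate, with no call by edgeR (-0.33 ± 0.15, adjusted p = 0.146). Limma-voom called UBE2C lower in OPM2 (-0.30, adjusted p = 0.0366). PTTG1, securin, had 0.21 in both lines.

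ESPL1 encodes separase, the protease that opens cohesin. It had 148.9, 47.2 and 154.2 CPM in OPM2 dBRD9-A libraries, against 105.7, 87.3 and 102.5 CPM in OPM2 DMSO libraries. In H929 it had 83.6, 99.3 and 80.3 CPM with dBRD9-A and 92.3, 83.4 and 91.5 CPM with DMSO. The OPM2 value therefore turned on 1 library, at 0.25 ± 0.32 (adjusted p = 0.625) with replicate 2 and 0.61 (adjusted p = 0.000536) without it. The H929 value was -0.02 and 0.01, and the difference between the lines is given further on. Limma-voom called ESPL1 higher in OPM2 (0.57, adjusted p = 0.000341). It called 2 of the 4 anaphase onset genes in OPM2 and 0 in H929, where it called 44.1% and 36.0% of all genes.

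Of 7 centromere and outer kinetochore genes 0 were called in either line by edgeR or limma-voom. Of all genes edgeR called 13.0% in H929 and 17.4% in OPM2, and limma-voom 36.0% and 44.1%. An unadjusted p under 0.05 was found for 0 of the 7 in H929 and 2 in OPM2, where 27.3% and 33.2% of all genes had one. The median of the 7 genes in OPM2 was 0.09 without replicate 2 and 0.39 with it. CENPE, a kinetochore motor, had 243.1, 600.8 and 218.9 CPM in OPM2 dBRD9-A libraries, against 218.9, 184.3 and 223.0 CPM in OPM2 DMSO libraries. In H929 it had 167.1, 111.3 and 138.8 CPM with dBRD9-A and 130.4, 103.8 and 142.0 CPM with DMSO. The groups overlapped in each line, and the OPM2 value of 0.76 ± 0.32 (adjusted p = 0.116) became 0.13 without replicate 2. CENPF, a large kinetochore and nuclear matrix protein, had 893.5, 1757 and 813.3 CPM in OPM2 dBRD9-A libraries and 946.4, 697.0 and 791.6 CPM in OPM2 DMSO libraries. In H929 it had 286.5, 236.2 and 258.8 CPM with dBRD9-A and 234.1, 211.0 and 259.7 CPM with DMSO. Its OPM2 value was 0.51 ± 0.24 with replicate 2 and 0.06 without it.

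CENPA, the histone H3 variant of centromeres, had 27.8, 34.9 and 27.8 CPM in H929 dBRD9-A libraries and 34.5, 29.1 and 29.4 CPM in H929 DMSO libraries. Levels in OPM2 were 28.98, 20.97 and 29.4 CPM with dBRD9-A and 32.05, 26.96 and 28.9 CPM with DMSO. The groups overlapped in both lines (-0.04 ± 0.15 and -0.14 ± 0.15). The 4 subunits of the NDC80 complex, which binds the microtubule end, did not lie together in OPM2 with all libraries. NDC80 had 0.39, NUF2 0.40 and SPC25 0.25, whereas SPC24 had -0.31, with 6.61 CPM in replicate 2 against 31.1 and 28.7 CPM in its group mates. Without replicate 2 these values were 0.18, 0.09, 0.08 and 0.10, and in H929 they were 0.13, -0.06, -0.01 and -0.03.

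In the midzone and cytokinesis group all 5 genes had a positive log2 fold change in OPM2, and 0 were called by edgeR, with 2 at an unadjusted p under 0.05 and 1, ECT2, called by limma-voom. In H929 both tools called 0. Of all genes edgeR called 13.0% in H929 and 17.4% in OPM2, and limma-voom 36.0% and 44.1%. An unadjusted p under 0.05 was found for 33.2% of all genes in OPM2. KIF20A, a midzone kinesin, had 130.2, 148.1 and 140.0 CPM in H929 dBRD9-A libraries and between 118.2 and 131.3 CPM in the 3 H929 DMSO libraries. In OPM2 it had 63.1, 74.2 and 58.0 CPM with dBRD9-A and 63.3, 54.2 and 59.9 CPM with DMSO. The groups overlapped in both lines (0.18 ± 0.12 and 0.14 ± 0.12). ECT2, the exchange factor that switches on RhoA, and ANLN, anillin of the contractile ring, had 0.44 and 0.41 in OPM2 (adjusted p = 0.0555 and 0.0952) and 0.00 and -0.08 in H929. KIF23, a centralspindlin motor, and PRC1, a midzone microtubule bundler, had 0.30 and 0.21 in OPM2 and -0.05 and 0.15 in H929. Without OPM2 dBRD9-A replicate 2 the OPM2 median of the 5 genes was 0.08, against 0.30 with it.

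TOP2A, topoisomerase II alpha, which untangles chromosomes, had 740.5, 620.0 and 681.3 CPM in H929 dBRD9-A libraries, against 605.1, 530.2 and 593.4 CPM in H929 DMSO libraries. The OPM2 values were 900.8, 1053 and 780.1 CPM with dBRD9-A and 755.7, 635.7 and 705.6 CPM with DMSO. Treated libraries lay above controls in both lines, and neither difference was called (0.24 ± 0.13, adjusted p = 0.264, and 0.38 ± 0.13, adjusted p = 0.062). MKI67, the Ki-67 protein that coats mitotic chromosomes and serves as a proliferation marker, had 984.0, 871.9 and 936.9 CPM in H929 dBRD9-A libraries and 797.3, 798.9 and 1000 CPM in H929 DMSO libraries. OPM2 libraries had 816.3, 1525 and 809.0 CPM with dBRD9-A and 849.0, 627.7 and 761.0 CPM with DMSO. The groups overlapped in both lines, at 0.11 ± 0.22 and 0.49 ± 0.22, the OPM2 value being 0.11 without replicate 2.

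The 2 transcription factors of the group were not called by edgeR, and limma-voom called 1 of them, MYBL2, lower in both lines (adjusted p = 0.0048 in H929 and 0.0091 in OPM2). Of all genes edgeR called 13.0% in H929 and 17.4% in OPM2, and limma-voom called 18.6% and 20.9% lower. FOXM1, an activator of G2 and M phase genes, had 112.6, 134.7 and 113.3 CPM in H929 dBRD9-A libraries and 118.1, 121.6 and 125.5 CPM in H929 DMSO libraries. Levels in OPM2 were 236.9, 166.8 and 250.6 CPM with dBRD9-A and 268.9, 222.5 and 239.4 CPM with DMSO. FOXM1 overlapped in both lines (-0.02 ± 0.15 and -0.16 ± 0.15). MYBL2, which encodes B-MYB, had 486.1, 633.6 and 499.4 CPM in H929 dBRD9-A libraries, against 665.2, 678.8 and 678.1 CPM in H929 DMSO libraries. In OPM2 it had 369.8, 295.2 and 413.7 CPM with dBRD9-A and 501.0, 412.9 and 504.1 CPM with DMSO. Its H929 groups did not overlap and its OPM2 groups overlapped narrowly, with no call (-0.32 ± 0.15, adjusted p = 0.18, and -0.39 ± 0.15, adjusted p = 0.0827). With OPM2 dBRD9-A replicate 2 left out, MYBL2 fell in H929 (-0.29, adjusted p = 0.0433) and had -0.28 in OPM2 (adjusted p = 0.0819).

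The values of OPM2 dBRD9-A replicate 2 varied with GC content among the members. Their median GC content was 43.9%, against 49.7% over all genes tested, and their median length was 2798 bases, against 2811. The members' log2 deviations from the DMSO mean had a median of 0.35 in replicate 2 and of 0.11 and 0.01 in replicates 1 and 3. For the 22 members with a GC content below the members' median, the OPM2 log2 fold change had a median of 0.29 with replicate 2 and 0.07 without it. For the other 23 it was -0.05 and 0.02. Across the 45 members the Spearman correlation of the OPM2 log2 fold change with GC content was -0.55, and -0.17 without replicate 2, and in H929 it was -0.25. Members' deviations from the DMSO mean correlated with GC content at -0.69 in OPM2 dBRD9-A replicate 2. In H929 dBRD9-A replicates 1, 2 and 3 that correlation was -0.56, 0.37 and -0.37. These correlations are across genes of the same libraries and are descriptions. The DMSO libraries of OPM2 also differed among themselves in level, since all 45 members lay above the group mean in replicate 1 and none did so in replicate 2. Those of H929 differed too, with 35, 6 and 27 members above the group mean in replicates 1, 2 and 3.

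**Figure D4:**
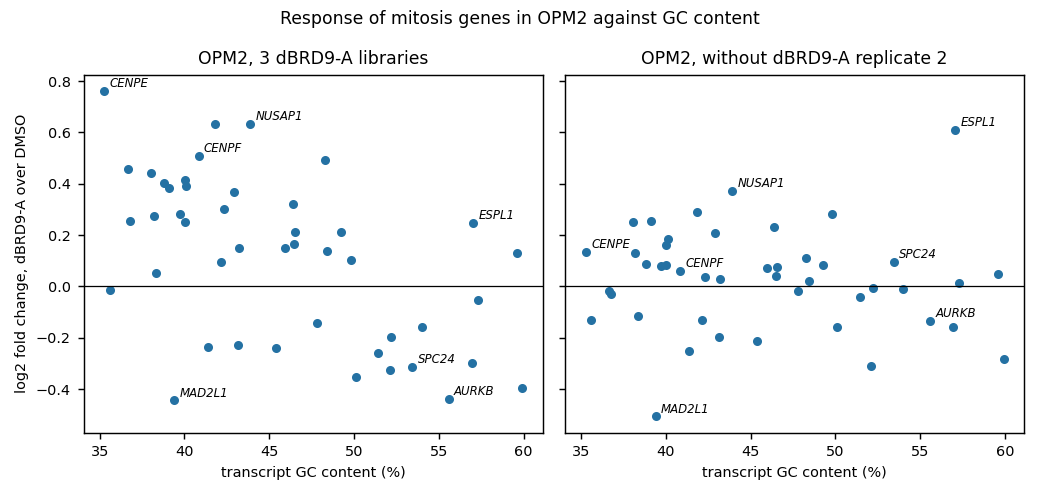
Each point is 1 of the 45 mitosis genes, with transcript GC content in percent on the horizontal axis and the OPM2 log2 fold change, dBRD9-A over DMSO, on the vertical axis. With 3 treated libraries on the left, the 22 members of lower GC content have a median of 0.29 and the other 23 one of -0.05, while MAD2L1 (-0.44 at 39.4% GC) and ESPL1 (0.25 at 57.0% GC) lie the other way. Without replicate 2 on the right, MAD2L1 (-0.51) and ESPL1 (0.61) stand at the ends.

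The response to dBRD9-A, H929 minus OPM2, was called for none of the 45 members, where 0.579% of all genes were called by edgeR. An unadjusted p under 0.05 was found for 1 member, NEK2 (-0.66 ± 0.29, adjusted p = 0.553), where 1411 of the 16408 genes had one. Without OPM2 dBRD9-A replicate 2 the NEK2 difference was -0.29 (adjusted p = 0.497). The differences were between -0.66 and 0.28 on the log2 scale, and the 95% intervals of 37 members lay within 1 log2 unit of 0. ESPL1 was called without OPM2 dBRD9-A replicate 2, with a difference of -0.60 (adjusted p = 0.0318), where 3.04% of genes were called (1.63% higher and 1.41% lower). It was also called by limma-voom with library weights, with -0.66 (adjusted p = 0.0183), where 5.38% of genes were called (2.55% higher and 2.82% lower). The difference for MAD2L1 was not called, and was -0.03 without that replicate. A missing call does not show that the lines responded alike.

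In DMSO, H929 and OPM2 differed in some of these transcripts. A call here also required a 2-fold difference, and 5 of the 45 members met it, 1 higher in H929 and 4 lower, where 36.3% of all genes did (21.4% higher and 15.0% lower). At any fold 9 were higher and 13 lower, against 32.6% and 27.5% of all genes (60.2% in either direction). CKAP2 was lower in H929 by the widest margin among the members. It had 82.0, 83.9 and 88.7 CPM in H929 and 467.7, 430.9 and 488.7 CPM in OPM2, a log2 fold change of -2.45 ± 0.19 (adjusted p = 2.33e-07). CENPF followed, at -1.79 ± 0.25 (adjusted p = 5.43e-05), with 234.1, 211.0 and 259.7 CPM in H929 and 946.4, 697.0 and 791.6 CPM in OPM2. Both were lower in every H929 library than in every OPM2 library.

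CDK1 was lower in H929, at 70.4 ± 5.18 CPM, than in OPM2, at 159 ± 13.6 CPM (SD, n = 3; -1.18 ± 0.12, adjusted p = 3.72e-06). FOXM1 was at 121.7 ± 3.71 CPM in H929 and 243.6 ± 23.5 CPM in OPM2 (-1.001 ± 0.15, adjusted p = 8.96e-05). It missed the fold threshold in 3 of 22 alternatives, with -0.92 without OPM2 DMSO replicate 1 and -0.99 with RLE factors or DESeq2. KIF20A was the member higher in H929, at 123.2 ± 7.08 CPM against 59.2 ± 4.62 CPM in OPM2 (1.06 ± 0.12, adjusted p = 6.48e-06), and it too missed the threshold in 3 of 22 alternatives, with 0.97 without H929 DMSO replicate 1, 0.999 without OPM2 DMSO replicate 2 and 0.94 without scaling factors. An exon of KIF20A overlaps CDC23, on the opposite strand, which was also higher in H929 (1.98 ± 0.10, adjusted p = 7.03e-09), and the part of the overlap was not tested. Of members below 2-fold, CDC25C was higher in H929 (0.98 ± 0.19) and CCNB1 too (0.52 ± 0.11), while MAD2L1 was lower (-0.64 ± 0.11).

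Compared per kilobase of transcript, the DMSO levels of the 45 genes covered a wide range in both lines. In H929 MYBL2 was highest at 242.7 CPM per kilobase, followed by UBE2C at 220.1 and CCNB1 at 133.6, and CDC25C was lowest at 13.0. In OPM2 MYBL2 was at 170.2, UBE2C at 163.4 and CKAP2 at 123.7, and CDC25C again lowest at 6.60 CPM per kilobase. CKAP2 was therefore 37th of the 45 in H929 and the third in OPM2.

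Other lists of the division machinery were drawn up by function. Their counts stand beside the shares of all genes called by edgeR with all libraries, 7.33% higher and 5.67% lower in H929, and 10.1% higher and 7.34% lower in OPM2. Of 58 further spindle and kinetochore genes 4 fell and none rose in H929 (median -0.15), and 1 fell and none rose in OPM2 (median 0.05). Limma-voom called 2 higher and 19 lower in H929 (32.8% lower, against 18.6% of all genes), and 6 higher and 10 lower in OPM2 (17.2% lower, against 20.9%). Without OPM2 dBRD9-A replicate 2 edgeR called 3 higher and 15 lower in H929 (25.9% lower, against 16.5%), and 3 higher and 6 lower in OPM2 (10.3% lower, against 15.6%). TRIP13, the ATPase that remodels MAD2, fell in both lines. It had 77.3, 89.8 and 89.7 CPM in H929 dBRD9-A libraries against 122.9, 128.5 and 120.6 CPM in H929 DMSO libraries (-0.53 ± 0.15, adjusted p = 0.0322), and 70.3, 53.6 and 80.9 CPM in OPM2 dBRD9-A libraries against 115.7, 97.9 and 122.6 CPM in OPM2 DMSO libraries (-0.71 ± 0.15, adjusted p = 0.00703). MIS18A, a CENPA loading factor, fell by 0.50 in H929, and CENPP, a kinetochore protein, by 0.49. Treated libraries of TRIP13 were below the controls in both lines, as for MAD2L1.

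Of 36 further genes of mitotic entry and exit 2 rose and 3 fell in H929, and 2 rose and 2 fell in OPM2 (13.9% called in H929, against 13.0% of all genes, and 11.1% in OPM2, against 17.4%). CDC25A, a Cdk-activating phosphatase that also acts in S phase, fell by 0.90 in H929 and 0.87 in OPM2, LMNB1, lamin B1, fell by 0.39 and 0.40, and FBXO5, an inhibitor of the anaphase-promoting complex, fell by 0.51 in H929. CIT, citron kinase of cytokinesis, rose by 0.43 and 0.61, and CDC14B, a phosphatase, by 0.92 and 3.30. Of 16 subunits of the anaphase-promoting complex and its enzymes 2 fell in each line, ANAPC10 by 0.57 in H929 and 0.66 in OPM2 and ANAPC1 by 0.45 and 0.41 (12.5% lower in each line). Of 22 condensin and cohesin genes, which shape and hold chromosomes, 0 were called by edgeR in either line. An unadjusted p under 0.05 was found for 1 in H929 and 6 in OPM2, where 27.3% and 33.2% of all genes had one. Limma-voom called 3 lower in H929 (13.6%, against 18.6% of all genes). In OPM2 it called 3 higher and 2 lower (13.6% and 9.09%, against 23.2% and 20.9%). NCAPD3, a condensin II subunit, had -0.28 and NCAPD2, a condensin I subunit, 0.22 in H929, and STAG2 and NIPBL, a cohesin subunit and its loader, had 0.55 and 0.63 in OPM2 and 0.23 and 0.20 without replicate 2. Of 19 MuvB, DREAM and E2F regulators 2 rose and 2 fell in H929, and 2 rose and 3 fell in OPM2 (21.1% called in H929, against 13.0% of all genes, and 26.3% in OPM2, against 17.4%). EdgeR without OPM2 dBRD9-A replicate 2 called 5 higher and 8 lower in H929 (68.4%, against 35.7% of all genes), and 3 higher and 6 lower in OPM2 (47.4%, against 31.7%). Limma-voom called 4 higher and 8 lower in H929 (63.2%, against 36.0%), and 5 higher and 6 lower in OPM2 (57.9%, against 44.1%). RBL2, the p130 repressor subunit, rose by 0.41 and 0.36, E2F7, a repressor E2F, rose by 0.53 and 0.43, and TFDP1, the partner of E2F proteins, fell by 0.52 and 0.54. TFDP1 was 1 of the 2 that fell in H929 and of the 3 in OPM2, and the others are not named here. The lowest log2 fold changes of this list were -0.71 in H929 and -0.91 in OPM2, in genes not named.

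The DNA replication and S phase list had lower medians than the mitosis genes in both lines. Of its 49 genes 21 fell and none rose in H929 (median -0.37), and 17 fell and none rose in OPM2 (median -0.38). These are 42.9% and 34.7% of the list, against 5.67% and 7.34% of all genes that fell. Limma-voom called 43 lower in H929 and 36 in OPM2 and 0 higher in either line, where it called 18.6% and 20.9% of all genes lower. Without OPM2 dBRD9-A replicate 2 edgeR called 38 lower and 1 higher in H929 and 28 lower in OPM2, where 16.5% and 15.6% of all genes were lower. MCM10, a replication initiation factor, had 69.4, 71.3 and 69.4 CPM in H929 dBRD9-A libraries and 106.8, 118.8 and 117.8 CPM in H929 DMSO libraries. The OPM2 values were 91.1, 92.8 and 108.4 CPM with dBRD9-A and 154.7, 150.1 and 166.1 CPM with DMSO. The groups of MCM10 were separate in both lines. TIPIN and CDC45, of the replication fork, fell by 0.75 and 0.77 in H929, and MCM4, a subunit of the replicative helicase, and RFC3, of the clamp loader, fell by 0.57 and 0.48 in OPM2. The lists were not tested against each other.

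**Figure D5:**
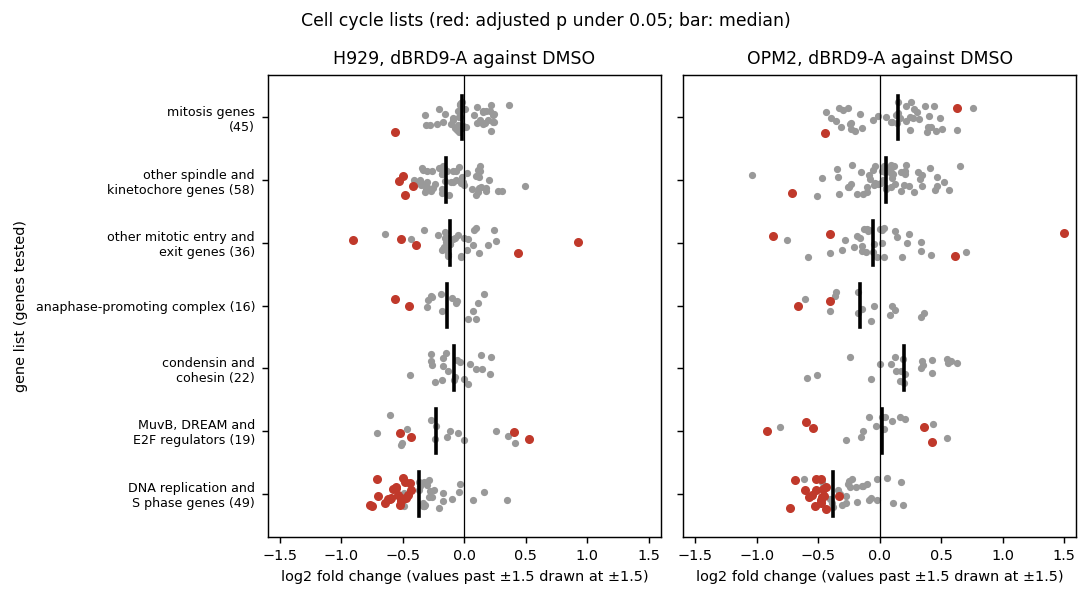
Each point is a gene tested, with its log2 fold change, dBRD9-A over DMSO, on the horizontal axis, in H929 on the left and OPM2 on the right, and values past 1.5 drawn at 1.5. Red points have an adjusted p under 0.05 and bars are medians. The bar of the S phase list lies at -0.37 and -0.38, and that of the mitosis genes at -0.02 and 0.15.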

How the data were processed

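Per the file headers, the authors deposited for each library a count, which is a whole number of reads not normalised, and an FPKM value for every RefSeq transcript (51780 rows). FPKM values, which the authors scaled by transcript length and library total, served here only to recover that length. The submitters' processing notes name STAR, featureCounts, hg19 and GRCh37. Versions and the strand setting are not given in the sources used here. Per the labels' protocols, RNA came from a Qiagen column kit and libraries from a stranded poly(A) kit. Whether replicates are separate cultures is not stated in the labels, so a p-value reflects only how much these libraries vary, possibly for technical reasons. The other samples of the series were not analysed here.

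Each symbol was represented by its transcript with the highest mean count. Genes were filtered by group with filterByExpr and scaled by TMM, and a mean per group was fitted with edgeR 4.0.16 in R 4.3.3 (quasi-likelihood test, Benjamini-Hochberg adjustment, threshold 0.05). For either line dBRD9-A was compared with DMSO, and an interaction term tested how the 2 responses differed. The lines were also compared in DMSO, where a call needed a 2-fold difference. An exact permutation test of 3 against 3 libraries cannot go below p = 0.1 and was not used. The procedure was also run on simulated counts that held no line difference, no GC trend and no library of deviating composition. That run cannot show how the procedure handles these features here. The alternatives were RLE factors, no factors, no filter, a filter of 1 CPM in 3 libraries, DESeq2 1.42.0, limma-voom 3.58.1 with library weights, each line alone, the replicate number as a block, a GC trend removed (also with the block), the sum over transcripts and each library left out.

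The members, the other lists, the tests and the alternatives were chosen with earlier results of these data known. Full values were given for members called in a treatment comparison and for a set of well-known members. From each other list up to 3 called genes per direction were named, and of the MuvB, DREAM and E2F regulators that fell only TFDP1. ESPL1, BUB3, KIF4A and CKAP2 were given in full after their values were seen. No member shared counts within 5% with another symbol in every library. Per GENCODE v29, 10 members have an exon overlapped on the opposite strand and 3 on the same strand, and 10 have a named pseudogene, so reads could be shared there. Coordinates of promoters are on GRCh38.p14 from RefSeq, which is not the build of the counts, and were used for sequence only.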

Additional observations from a re-analysis of the deposited data

Results flagged for a closer look

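CDC14B, a phosphatase gene from the list of mitotic entry and exit genes and not a member, responded to dBRD9-A differently in the lines by the test of the difference itself. It was at 11.6 ± 1.11 CPM with dBRD9-A and 6.11 ± 0.47 CPM with DMSO in H929, and at 4.41 ± 1.23 CPM with dBRD9-A and 0.45 ± 0.13 CPM with DMSO in OPM2 (SD, n = 3 per group). The response in H929 minus that in OPM2 was -2.38 ± 0.32 on the log2 scale (SE, edgeR adjusted p = 0.00639). The higher treated level was in H929, and the larger ratio in OPM2 stands on a low level in OPM2 DMSO libraries. Without OPM2 dBRD9-A replicate 2 the difference was -2.45. No mitosis gene among the 45 was selected by this test.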

How the results depend on the processing

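No member was called in opposite directions by different analyses of a comparison. Values that were not called changed sign under at least 1 alternative for 18 of the 45 members in H929, 9 in OPM2, 30 in the difference of responses and 8 between the lines in DMSO. In H929, members called higher (0 in the analysis given above) were 1 without scaling factors, 1 with each line fitted alone, 1 after removal of the GC trend and 3 with limma-voom, and members called lower (1) were 2 with DESeq2, 3 with each line alone and 4 with limma-voom. In the same order, 9.72%, 15.9%, 12.2% and 17.4% of all genes were called higher, and 7.61%, 16.3% and 18.6% lower. The H929 median was 0.073 without factors, against -0.022, where the median of all genes was 0.089 against -0.002. Leaving out 1 library gave 0 to 5 higher, 1 to 4 lower and a median of -0.046 to 0.080, with 5 and 4 without OPM2 dBRD9-A replicate 2. In OPM2, members called higher (1) were 7 without factors, 5 with the 1 CPM filter, 6 with DESeq2, 8 with limma-voom, 0 with each line alone, 3 with the GC trend removed and 2 with transcripts summed. The shares of all genes called higher were, in that order, 12.4%, 13.1%, 15.0%, 23.2%, 3.68%, 15.0% and 9.52%. Members called lower (1) were 2 with DESeq2, 4 with limma-voom, 0 with each line alone and 2 with the GC trend removed, where 9.92%, 20.9%, 2.14% and 11.5% of all genes were called lower. Leaving out 1 library gave 0 to 9 higher and 0 to 2 lower, with 9 and 2 without dBRD9-A replicate 3, and the median was 0.04 to 0.21. The difference of responses had 1 member called (0 above) with limma-voom and 0 to 1 with a library left out. The lines in DMSO had 4 to 6 members called (5 above), and without factors the median over all genes in that comparison was -0.07, against 0.05. The share of all genes called was 22.3% in H929 and 26.6% in OPM2 with the GC trend removed, and 32.3% and 5.82% with each line alone. The cause of these changes was not tested.

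With the replicate block, 0 members were called higher and 0 lower in OPM2, and with the block and the GC trend removed 0 and 2. Of all genes, 6.22% were called higher and 4.32% lower with the block, and 11.5% and 9.08% with the GC trend removed as well. Deviations of same-numbered treated and control libraries correlated at -0.12, -0.17 and -0.12 in H929 and 0.30, -0.02 and -0.11 in OPM2. The deviations of the 3 libraries of a group sum to 0, so these values cannot settle whether the numbers pair the samples. Differently numbered H929 libraries did correlate, at 0.65 for dBRD9-A replicate 1 with DMSO replicate 3. The values were 0.52 for replicates 2 and 1 and 0.70 for replicates 3 and 2. Other differently numbered pairs in H929 had -0.38, -0.45 and -0.61, and those in OPM2 lay between -0.28 and 0.20. Neither the main fit nor the block by number models this structure, and its cause was not tested. With the block the H929 counts were 0 and 1, the difference of responses had 0 members called and the lines in DMSO had 6. That fit called 4.36% of all genes higher and 2.41% lower in H929. It called 26 of 16408 genes in the difference of responses and 5133 between the lines in DMSO. The lowest count of a member in a library was 157.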
